A study of Mus musculus with 20 samples.

Results

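Serotonin, dopamine and noradrenaline are carried into the hypothalamus by fibres from the brainstem and, for dopamine, are also made by neurons of the arcuate nucleus itself. They act mostly on receptors of the G protein-coupled family, whose effect on a cell depends on the G protein they engage. Receptors coupled to Gi, such as the serotonin receptors 1A and 1B, the dopamine D2 receptor and the alpha-2A adrenoceptor, lower cyclic AMP and open inwardly rectifying potassium channels. Those coupled to Gq (serotonin 2A and 2C, alpha-1A and alpha-1B) activate phospholipase C, and those coupled to Gs (serotonin 7 and beta-1) raise cyclic AMP. In the arcuate nucleus (ARC), where neurons that make Pomc or Agrp regulate feeding, serotonin 2C receptors are known for exciting Pomc neurons and serotonin 1B receptors for inhibiting Agrp neurons.

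The 10 genes described here are the receptors Htr1a, Htr1b, Htr2a, Htr2c, Htr7, Drd2, Adra1a, Adra1b, Adra2a and Adrb1, taken by symbol from 22048 genes counted in each dataset. The measurements are RNA-seq read counts from whole arcuate nuclei of male C57BL6/J mice, cut out by laser capture microdissection. The mice were described as 10 weeks old, and acclimatization and baseline measurements came before treatment. They then drank either corticosterone (Cort, the main glucocorticoid of rodents) at 75 μg/ml in 1% ethanol or 1% ethanol alone as vehicle. The groups were 2 day vehicle, 2 day Cort, 4 week vehicle and 4 week Cort, with 5 samples each. The 4 week mice, vehicle and Cort alike, were also fasted for 16 hours and refed for 24 hours before collection, whereas the 2 day mice were not.

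The study left out 2 vehicle samples and 1 Cort sample in each dataset because they stood apart in principal components, so the main comparisons rest on 3 vehicle and 4 Cort samples. Samples carry the codes C01 to C10 of the deposited columns, a separate series of codes at 2 days and at 4 weeks. At 2 days C07, C08 and C09 were left out, of which C08 had Cort, and at 4 weeks C01, C05 and C06, of which C06 had Cort. The samples held between 2487063 and 5748223 counts in the 2 day dataset and between 1065776 and 5196364 in the 4 week dataset. All 8 markers of arcuate neurons were above 3 counts in at least 1 of the samples kept at 2 days, where their summed level was 1378 to 2481 CPM (counts scaled to the size of the library), against 23.1 to 81.1 CPM for 5 markers of the neighbouring ventromedial nucleus. In the samples kept at 4 weeks the 2 sums were 528 to 1439 CPM and 1.24 to 89.8 CPM. There 7 of the 8 arcuate markers and 4 of the 5 ventromedial markers were above 3 counts in some sample. The captured tissue holds every cell type of the nucleus, so fewer cells of a type and less RNA per cell cannot be told apart.

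The 10 receptors lie on 6 chromosomes. On GRCm38 with the GENCODE M21 annotation, Htr1a (ENSMUSG00000021721) is a gene with 1 exon on chromosome 13 at 105443639 to 105448122, plus strand. Adra2a on chromosome 19 at 54044151 to 54048982, plus strand, also has 1 block of exon sequence. Htr2c (ENSMUSG00000041380) spans chromosome X from 146962513 to 147197277, plus strand, in 8 blocks of exons, and has the longest exon sequence of the 10 at 9328 bases. Drd2 has the shortest at 2547 bases. Of the exon sequence of Htr1b, on the minus strand of chromosome 9 at 81628291 to 81633828, 18.0% is shared with D430036J16Rik on the other strand. As the sources used here do not state whether counting used strand, reads from that stretch cannot be told apart.

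Corticosterone acts through nuclear receptors that bind DNA at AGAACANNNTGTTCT or close variants. RefSeq promoter sequences (GRCm38.p6, 250 bases before to 50 after each start) were at hand for 9 of the 10 receptors, with 2 for Adra1b. None of these 10 promoters held the full site, which 0.00913% of the 32851 promoters in the table held. The half-site AGAACA or its other strand TGTTCT was in 19.0% of all promoters and in 1 of the 10, that of Htr2a, at chr14:74640706-74640711. The bases upstream of Htr2c, Htr1a and Htr2a are printed because these receptors are described first, cut short where an annotated exon begins, with the half-site in capitals. They are chrX:146962263-146962512, chr13:105443443-105443638 and chr14:74640624-74640839, all on the plus strand.
Htr2c: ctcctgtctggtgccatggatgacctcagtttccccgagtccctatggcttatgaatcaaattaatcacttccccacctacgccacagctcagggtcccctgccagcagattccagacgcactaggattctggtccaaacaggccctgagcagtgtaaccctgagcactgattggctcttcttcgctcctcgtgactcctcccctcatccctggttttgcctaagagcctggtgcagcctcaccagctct
Htr1a: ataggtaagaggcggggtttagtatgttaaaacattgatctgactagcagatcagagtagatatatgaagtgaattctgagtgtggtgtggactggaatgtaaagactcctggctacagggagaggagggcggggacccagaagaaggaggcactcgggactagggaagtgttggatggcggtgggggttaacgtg
Htr2a: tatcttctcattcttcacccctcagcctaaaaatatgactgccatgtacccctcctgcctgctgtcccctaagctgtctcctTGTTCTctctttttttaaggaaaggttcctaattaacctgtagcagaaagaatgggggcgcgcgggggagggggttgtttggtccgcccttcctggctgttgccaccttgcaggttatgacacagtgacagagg
A match of letters is a description of the sequence and was not measured as binding.

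Divided by exon length so that genes can be set side by side, the receptors' medians at 2 days ran from 6.84 to 0.454 CPM per kb. Over the 7 samples kept, Htr7 had the highest median level at 6.84 CPM per kb of exon sequence (range 3.05 to 13.6). Htr1a followed at 5.14 (3.46 to 9.40), then Adra2a at 4.32 (3.09 to 8.07) and Drd2 at 3.98 (2.15 to 8.58). The middle of the order was Htr2c at 2.91 CPM per kb (0.853 to 5.55), and Adrb1, the beta-1 adrenoceptor, was lowest at 0.454 (0 to 1.00). Each receptor overlapped its neighbour in the order over the samples, so no step between neighbours was larger than the spread. Without division by length, Htr2c was first, with a median of 27.1 CPM. The order also depended on the length used. Per kb of coding sequence, Htr2c was first at 18.9 CPM, followed by Htr1a at 18.2 and Htr7 at 15.6.

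At 4 weeks the order over the 7 samples kept began with Drd2 at a median of 5.18 CPM per kb (0.324 to 18.0) and Htr1a at 5.17 (1.30 to 12.3). Htr2c followed at 2.78 CPM per kb (0.408 to 6.33), and Htr7, first at 2 days, was at place 6 with 2.00 (1.21 to 14.9). Adra2a, at place 3 at 2 days, was last at 0.213 CPM per kb (0 to 4.01). All neighbours overlapped here too. Per kb of coding sequence, Htr1a was first at 18.4 CPM and Drd2 was at place 5 with 9.90. The datasets differ in section thickness, slides, laser system, sequencer and fasting as well as in treatment time, and these cannot be told apart.

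**Figure D1:**
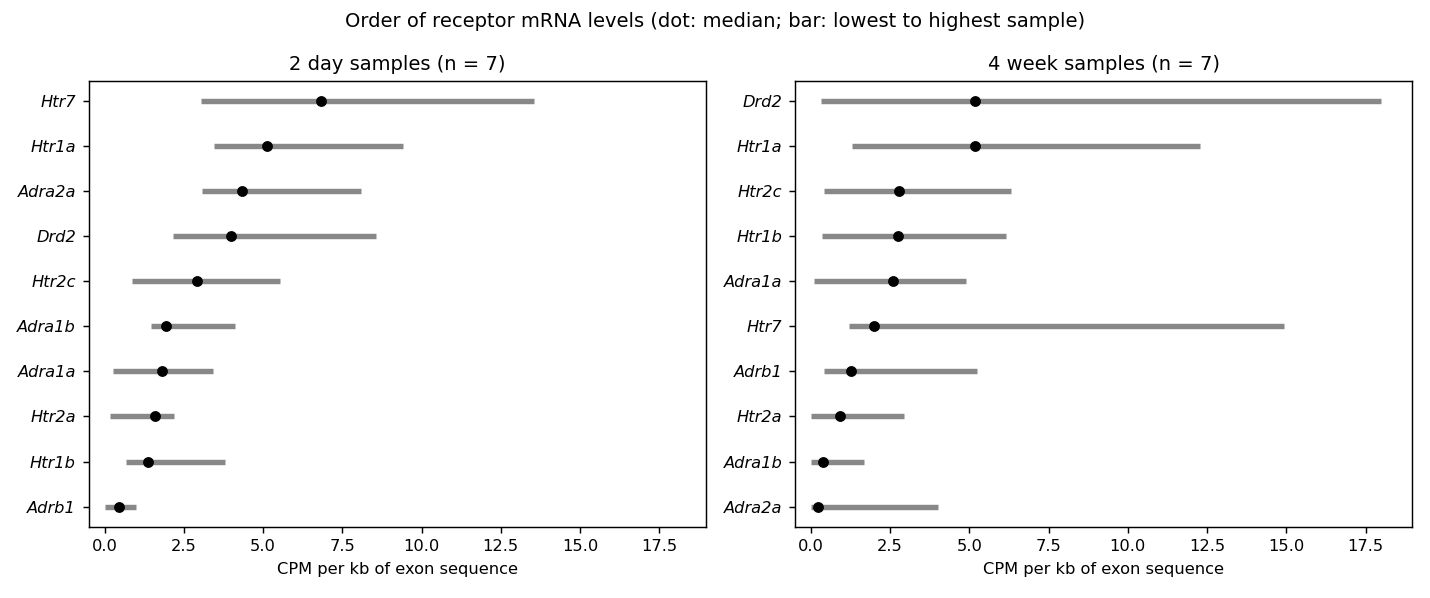
Receptor levels in CPM per kb of exon sequence on a linear axis, with 2 day samples on the left and 4 week samples on the right (n = 7 each, vehicle and Cort together). Dots are medians and bars run from the lowest to the highest sample. At 2 days the medians fall from 6.84 (Htr7) to 0.454 (Adrb1), and at 4 weeks Adra2a is last at 0.213, with every bar overlapping its neighbour.

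Detection also differed between the datasets. At 2 days 9 of the 10 receptors had counts in every sample, and 1 of the 100 values (10 receptors in 10 samples) was 0. At 4 weeks 3 receptors, Htr1a, Htr1b and Htr2c, had counts in every sample and 19 of the 100 values were 0. Most of these zeros were in the samples left out, with 4 in C01, 5 in C05 and 4 in C06. Each sample kept held 0 to 2 of them. Adra2a, the presynaptic and postsynaptic noradrenaline receptor through which clonidine acts, had 35 to 184 counts at 2 days. At 4 weeks it was at most 3 counts in 7 of the 10 samples, among them 4 at 0, with 63 counts in 1 Cort sample (C10). Adra1b was at 0 in 6 of the 4 week samples. On the scaled CPM printed here, a count of 3 corresponded to 0.619 to 2.75 CPM across the 4 week samples and to 0.512 to 1.19 at 2 days, and levels below this could not be told from 0.

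Cort was compared with vehicle at 2 days to see which receptor mRNAs differ early in treatment. None of the 9 receptors tested passed Padj below 0.1, against 0.0650% of the 12309 genes tested (edgeR's quasi-likelihood test with Benjamini-Hochberg adjustment). At an unadjusted P below 0.05 there were 2 of 9, Htr2c lower and Htr1a higher with Cort, where 5.97% of all genes tested fell below that value (2.83% with Cort lower and 3.14% with Cort higher). Of the 9 receptors, 5 had a log2 fold change above 0 and 4 below. Their median was 0.17, beside 0.02 over all genes tested.

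Htr2c, the Gq-coupled serotonin receptor, had the lowest P. In the vehicle samples kept it measured 51.7 CPM (C02), 41.8 (C04) and 33.3 (C05). With Cort it measured 27.1 (C01), 21.9 (C03), 18.0 (C06) and 7.96 (C10). Every kept Cort sample was below every kept vehicle sample, a separation seen with Cort lower in 3.61% of all genes tested and in either direction in 6.63%. The means were 42.3 ± 9.21 CPM (SD, n = 3) and 18.8 ± 8.11 (SD, n = 4), with a log2 fold change of -1.15 (SE 0.39, 95% interval -1.96 to -0.34, Padj = 0.62, edgeR). The exact 2-sided permutation test of log2 CPM gave p = 0.057, the smallest that 3 against 4 samples allow.

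The samples left out bear directly on that value. Htr2c was at 3.44 CPM in C07 and 4.28 in C09, both vehicle, below all 8 other samples of the dataset, and at 10.9 in C08 (Cort). Over all 10 samples the log2 fold change was -0.63 (SE 0.58, Padj = 0.98, edgeR), the groups overlapped, and the exact permutation test gave p = 0.90. No receptor separated the groups over all 10 samples, where 0.804% of genes tested did.

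Some marker levels moved with the same samples. The summed level of the 8 arcuate neuron markers was 1378 to 1816 CPM in the kept vehicle samples and 1891 to 2481 in the kept Cort samples, without overlap. It was 2502 and 2311 in C07 and C09, and 3156 in C08. The 6 oligodendrocyte markers, all above 3 counts in some sample, summed to 341 to 414 CPM with vehicle and 417 to 592 with Cort in the samples kept, and to 681, 493 and 770 in C07, C09 and C08. The 3 vehicle samples highest in Htr2c were thus the 3 samples lowest in both sums. Markers of the ventromedial nucleus, 37.3 to 73.8 CPM with vehicle and 23.1 to 81.1 with Cort, overlapped. The 6 general neuron markers overlapped too, at 3382 to 3758 CPM with vehicle and 3033 to 3698 with Cort in the samples kept. Of these 6 genes, 5 had a log2 fold change below 0, and their median was -0.21. The sums for tanycytes, ependymal cells, astrocytes, microglia and vascular cells overlapped as well. The part of tissue composition in the Htr2c difference was not tested.

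**Figure D2:**
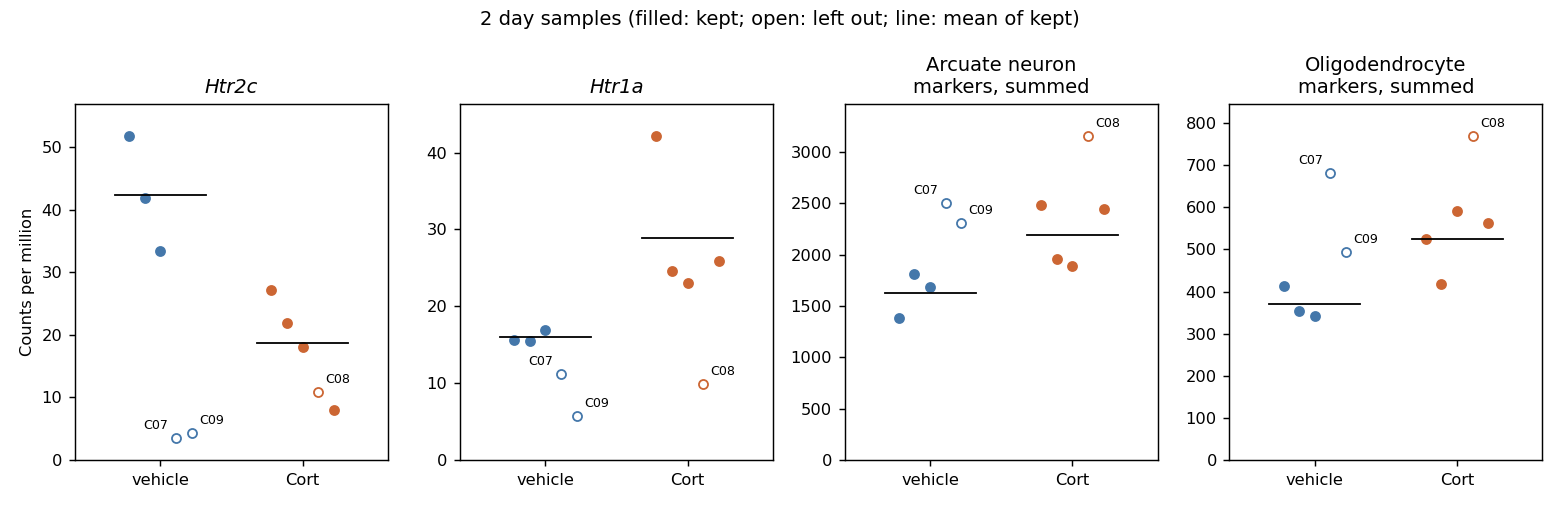
CPM at 2 days for Htr2c, Htr1a and the summed markers of arcuate neurons and of oligodendrocytes, by group on linear axes that start at 0. Each point is a sample (filled, kept; open, left out and labelled) and lines are means of the samples kept. The vehicle samples C07 and C09 lie at the bottom for Htr2c (3.44 and 4.28) and above the kept vehicle samples in both marker sums.

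Htr1a, the Gi-coupled receptor that also serves as the autoreceptor on serotonin neurons, was the other receptor with P below 0.05. Its kept vehicle samples were close together at 15.7 (C02), 15.5 (C04) and 16.9 CPM (C05). The Cort samples kept were at 42.2 (C01), 24.6 (C03), 23.0 (C06) and 25.9 (C10), all above the vehicle samples, as in 3.02% of all genes tested. The log2 fold change was 0.86 (SE 0.39, 95% interval 0.06 to 1.67, Padj = 0.81, edgeR). Leaving out 1 sample at a time gave values of 0.62 to 0.96, with P between 0.028 and 0.16.

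Here the samples left out lay low in both groups, at 11.1 (C07) and 5.70 CPM (C09) with vehicle and 9.83 (C08) with Cort. The vehicle samples therefore all remained below the 4 kept Cort samples, and C08 fell among them. Over all 10 samples the log2 fold change was 0.96 (SE 0.44, Padj = 0.93, edgeR, with P again below 0.05), and the exact permutation test gave p = 0.095.

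Htr2a and Htr1b had larger fold changes with wider errors. Htr2a, the Gq-coupled relative of Htr2c, measured 8.96, 12.3 and 10.8 CPM in the kept vehicle samples (C02, C04, C05) and 2.73, 1.01, 9.64 and 3.58 in the Cort samples (C01, C03, C06, C10). Of the Cort samples, 3 were below all kept vehicle samples and C06 was among them. The log2 fold change was -1.29 (SE 0.73, Padj = 0.86, edgeR), and without C06 it was -2.11 (SE 0.78, Padj = 0.56, edgeR). The vehicle samples left out, at 4.45 and 2.00 CPM, lay at the level of the Cort samples.

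Htr1b, which restrains transmitter release from nerve endings, measured 5.72, 3.23 and 6.51 CPM with vehicle and 17.9, 11.8, 3.22 and 14.3 with Cort in the samples kept. Again C06 (3.22) stood with the vehicle samples. The log2 fold change was 1.20 (SE 0.67, Padj = 0.86, edgeR), and without C06 it was 1.52 (SE 0.62, Padj = 0.65, edgeR). It was 1.19 over all 10 samples (SE 0.62). Without C06, 4 of the 9 receptors tested had P below 0.05, where 6.51% of all genes tested did. Of the other 6 fits that left out 1 sample, 4 gave 1 such receptor and 2 gave 2. Over all 10 samples there was 1, where 5.28% of genes fell below that value, and with at least 10 counts required in every sample there were 3 of 7 tested, where 6.35% did.

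The other serotonin and the dopamine receptor gave small differences at 2 days. Htr7, coupled to Gs, ranged from 13.8 to 25.6 CPM with vehicle and from 10.4 to 46.1 with Cort in the samples kept, with a log2 fold change of 0.21 (SE 0.46, 95% interval -0.76 to 1.18). Drd2 ranged from 5.47 to 19.3 CPM with vehicle and from 5.57 to 21.9 with Cort, with a log2 fold change of 0.17 (SE 0.58, 95% interval -1.04 to 1.38). The groups overlapped almost fully for both, and the intervals still hold changes of 2-fold either way for Drd2.

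Among the adrenoceptors no P was below 0.05 at 2 days. Adra1a, coupled to Gq, had a log2 fold change of -0.68 (SE 0.65), with 2 Cort samples at 2.36 and 3.39 CPM and 2 at 15.9 and 27.0. That value was -1.40 without C10 (Cort) and -0.22 without C04 (vehicle). Adra1b, of the same coupling, had 4.96 to 6.51 CPM in the kept vehicle samples and 5.57 to 13.9 with Cort, a log2 fold change of 0.84 (SE 0.63). Adra2a had a log2 fold change of -0.41 (SE 0.42), from 28.2 ± 12.2 CPM (SD, n = 3) to 21.0 ± 8.39 (SD, n = 4). Adrb1 did not pass the filter on low counts, with 0 to 19 counts in a sample.

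The vehicle samples left out differed from those kept for several receptors. Both lay below every kept vehicle sample for 5 of the 9 tested, namely Htr1a, Htr2a, Htr2c, Adra1a and Adra2a, as they did for 17.0% of all genes tested. For Adra1b both lay above, at 17.0 and 18.5 CPM, as for 16.8% of all genes tested. With all 10 samples the log2 fold change of Adra1b was -0.34 and that of Htr7 was -0.16, both opposite in sign to the values above.

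**Figure D3:**
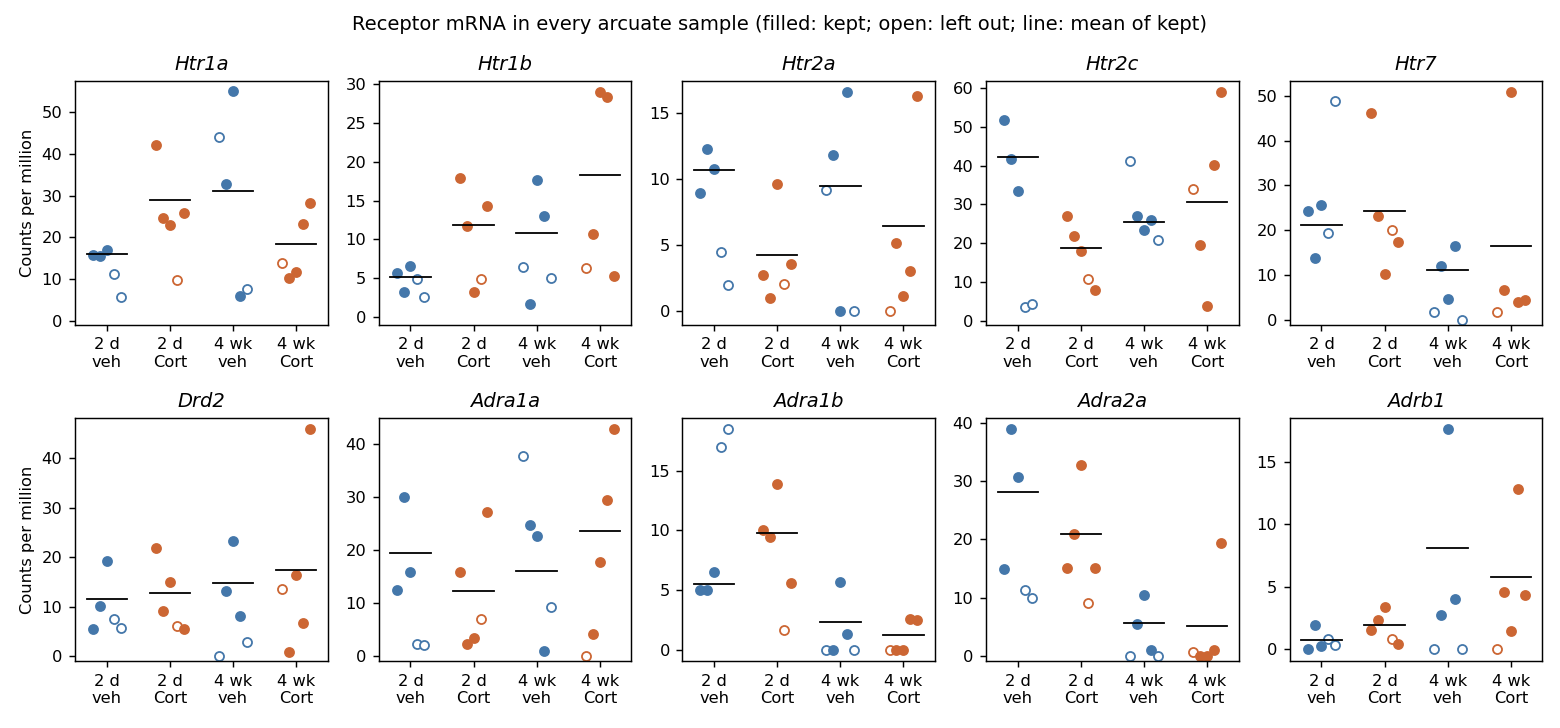
CPM of each receptor in every sample on linear axes, with 2 day vehicle, 2 day Cort, 4 week vehicle and 4 week Cort from left to right in each panel. Filled points are samples kept, open points samples left out and lines the means of the samples kept. At 2 days Htr2c and Htr1a separate the filled points of the 2 groups, and at 4 weeks the groups overlap in every panel.

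After 4 weeks of Cort, no receptor separated the groups, over the 7 samples kept or over all 10, where 6.53% and 0.919% of the genes tested did. None of the 9 receptors tested had Padj below 0.1, against 0.0446% of the 11211 genes tested, and none had an unadjusted P below 0.05 (edgeR), against 4.91%. DESeq2 also gave none at either level. All 9 of the 95% intervals held 0. The median log2 fold change of the 9 was 0.22, beside 0.04 over all genes tested.

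The spread between samples was larger at 4 weeks. The biological coefficient of variation, edgeR's estimate of the relative spread between samples of a group beyond counting error, was 0.349 to 0.626 for the receptors at 2 days and 0.784 to 1.51 at 4 weeks. Over all genes tested its median was 0.351 and 0.734. The widest 95% interval among the receptors spanned 3.03 log2 units at 2 days and 7.72 at 4 weeks, so that even large differences were not detectable at 4 weeks.

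Htr2c was the steadiest receptor among the 4 week vehicle samples kept, at 27.1 (C02), 23.3 (C03) and 26.0 CPM (C04). The Cort samples lay on both sides, at 19.6 (C07), 3.81 (C08), 40.2 (C09) and 59.0 (C10). The log2 fold change was 0.26 (SE 0.87, 95% interval -1.59 to 2.11). Htr1a measured 32.8, 55.1 and 5.82 CPM with vehicle and 10.3, 11.7, 23.2 and 28.3 with Cort, for a log2 fold change of -0.78 (SE 0.89). It ran from -1.27 without C04 to -0.080 without C03, both vehicle samples. Vehicle values bracketed those of the Cort samples.

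Single samples set the means of several receptors at 4 weeks. Htr7 was at 50.7 CPM in C08 and at 4.12 to 6.81 in the other 3 Cort samples kept. Drd2 was at 45.8 in C10 and at 0.825 in C07, both Cort. Adra2a was at 19.4 in C10 and at 0 to 1.03 in the other kept Cort samples. C10 held the highest level of 4 receptors and C03, a vehicle sample, that of 3. The summed markers of the ventromedial nucleus were also highest in C10, at 89.8 CPM. They were 1.24, 18.1 and 15.5 CPM in the other Cort samples kept (C07, C08, C09) and 6.03 in C03. The part of the captured area in these levels was not tested.

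The remaining log2 fold changes at 4 weeks were 0.75 for Htr1b (SE 1.11), 0.53 for Adra1a (SE 1.09), 0.55 for Htr7 (SE 1.17), 0.22 for Drd2 (SE 1.16), -0.56 for Htr2a (SE 1.49) and -0.51 for Adrb1 (SE 1.35). For Adra2a the value was -0.14 (SE 1.82), and without C10 this receptor did not pass the filter on low counts. None of these exceeded its own SE. Adra1b did not pass the filter on low counts, with 0 to 14 counts in a sample.

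**Figure D4:**
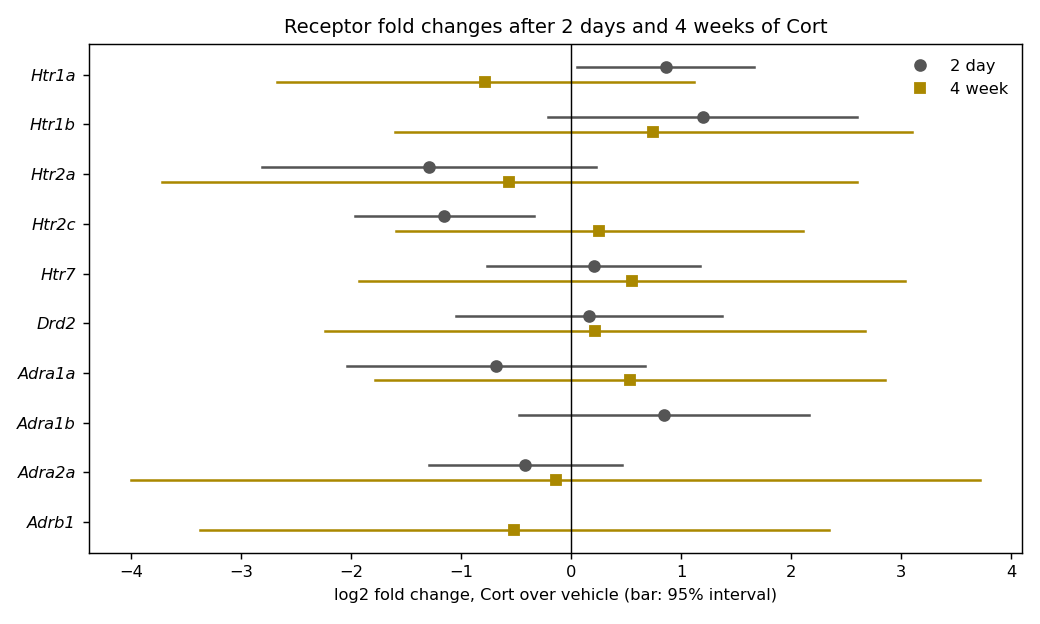
Log2 fold change of Cort over vehicle for each receptor from edgeR with its 95% interval (circles, 2 days; squares, 4 weeks; 3 vehicle and 4 Cort samples each). Adrb1 at 2 days and Adra1b at 4 weeks were not tested. At 2 days the intervals of Htr1a (0.06 to 1.67) and Htr2c (-1.96 to -0.34) exclude 0, and at 4 weeks all 9 hold 0.

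The difference between the 4 week and the 2 day effect was tested as an interaction over the 14 samples kept. None of the 10 receptors had Padj below 0.1, against 0.0157% of 12777 genes, or an unadjusted P below 0.05, against 6.49% (edgeR). DESeq2 gave none at either level. The lowest P were 0.10 for Htr1a, with an interaction of -1.64 on the log2 scale (SE 0.95), and 0.16 for Htr2c, at 1.42 (SE 0.96). A different response of these receptors at the 2 durations was therefore not shown.

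Receptors of the same families outside the 10 were mostly low. Of 18, only 7 passed the filter on low counts at 2 days and 4 at 4 weeks. The highest by their mean over the 14 kept samples of both datasets were Htr5a, a Gi-coupled serotonin receptor, Htr3b, a subunit of the serotonin-gated ion channel, and Htr4, coupled to Gs. Their medians over the 7 samples kept were 5.29, 3.67 and 0.811 CPM per kb at 2 days and 5.18, 1.71 and 1.17 at 4 weeks. At 2 days none of the 7 tested had P below 0.05, and 6 had a log2 fold change below 0.

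At 4 weeks Htr4 alone had P below 0.05 among the 4 of these receptors tested. It was at 0, 5.75 and 0 CPM in the kept vehicle samples and between 3.71 and 67.4 in the Cort samples (Padj = 0.99, edgeR), so that its vehicle level rests on 1 sample. Htr5a measured 18.7 ± 6.53 CPM (SD, n = 3) with vehicle and 33.5 ± 4.17 (SD, n = 4) with Cort, for a log2 fold change of 0.83 (SE 0.76).

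Of the genes for making and taking up the transmitters, those of dopamine were detected and those of serotonin were at or near 0. Th, the rate-limiting enzyme of catecholamine synthesis, had 94 to 500 counts at 2 days, Ddc, the decarboxylase of both pathways, 103 to 270, and Slc6a3, the dopamine transporter, 24 to 136. Tph2, the rate-limiting enzyme of neuronal serotonin synthesis, had 0 to 6 counts at 2 days and 0 in all 4 week samples, and Slc6a4, the serotonin transporter, reached 1 count in 1 sample. At 2 days the log2 fold changes were 0.37 for Th (SE 0.30), -0.16 for Ddc (SE 0.29) and -0.27 for Slc6a3 (SE 0.50). At 4 weeks the counts ran from 3 to 225 for Th, 1 to 136 for Ddc and 0 to 364 for Slc6a3. Each was thus at or below the floor of 3 counts in at least 1 of the 4 week samples. The 4 week log2 fold changes were -0.11 for Th (SE 0.87), -0.55 for Ddc (SE 0.86) and 1.12 for Slc6a3 (SE 1.20).

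Dbh, which makes noradrenaline from dopamine, had few counts at 2 days, and fewer with Cort than with vehicle. The vehicle samples held 3 (C02), 4 (C04), 10 (C05), 9 (C07) and 17 (C09) counts, and the Cort samples 0 (C01), 1 (C03), 1 (C06), 0 (C10) and 0 (C08). The groups did not overlap over all 10 samples, as in 0.804% of the genes tested, of which Dbh was not one. The vehicle sample C02 was at the floor of 3 counts. The gene did not pass the filter on low counts, and in the fit without that filter over the 7 samples kept it had Padj = 0.76 (edgeR). It was at 0 in every 4 week sample. Of the 17 genes of synthesis, transport and breakdown, 10 were tested in each dataset, with none at P below 0.05 at 2 days. At 4 weeks there was 1, Gch1, which makes the cofactor of Th, at 23.9 ± 10.5 CPM (SD, n = 3) with vehicle and 2.99 ± 2.44 (SD, n = 4) with Cort (Padj = 0.99, edgeR).

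Further down the pathway, mRNAs of the 10 G protein alpha subunits were all tested at 2 days, with a median biological coefficient of variation of 0.158, and none had P below 0.05 in either dataset. Nor did any of the adenylyl cyclases, phospholipases C and protein kinase A genes (14 of 15 tested at 2 days and 13 at 4 weeks), or any of the 3 RNA editing enzymes, of which Adarb1 is known to edit Htr2c transcripts.

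Of the 19 receptor kinases, arrestins, RGS proteins and GIRK channels, 18 were tested in each dataset. At 2 days Rgs2, which shortens Gq signals, measured 269 ± 26.0 CPM with vehicle (SD, n = 3) and 381 ± 87.7 with Cort (SD, n = 4), a log2 fold change of 0.51 (SE 0.17, Padj = 0.61, edgeR). S100a10, also called p11, an adaptor of the serotonin receptors 1B and 4, measured 48.9 ± 6.46 and 29.0 ± 6.67 CPM, a log2 fold change of -0.75 (SE 0.31, Padj = 0.77, edgeR).

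At 4 weeks Kcnj3, a subunit of the potassium channels that Gi-coupled receptors open, measured 36.1 ± 13.3 CPM with vehicle (SD, n = 3) and 186 ± 134 with Cort (SD, n = 4). Its log2 fold change was 2.35 (SE 0.59, Padj = 0.89, edgeR), with Cort samples from 51.6 to 346 CPM. In the samples kept at 4 weeks, 6 neuron markers summed to 2593 to 2807 CPM with vehicle and 2943 to 3276 with Cort. Over all 10 samples that sum overlapped, at 2492 to 3494 CPM with vehicle and 2943 to 3326 with Cort. The 8 arcuate neuron markers summed to 990 to 1439 CPM with vehicle and 528 to 992 with Cort in the samples kept. The part of either sum in the Kcnj3 difference was not tested. Arrb1, an arrestin that ends receptor signalling, had a log2 fold change of 0.79 (SE 0.36, Padj = 0.99, edgeR). Over all these lists outside the 10 receptors, 62 genes were tested at 2 days and 57 at 4 weeks. Of these, 2 and 4 had P below 0.05, where 5.97% and 4.91% of all genes tested did. None had Padj below 0.1, against 0.0650% and 0.0446% of all genes tested.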

How the data were processed

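Per the authors' methods, RNA was amplified, Rsubread aligned the 50 bp reads to GRCm38, featureCounts counted them per gene, and the authors deposited raw counts of 22048 genes in 10 samples per dataset. The deposited normalised tables hold a signal per gene and sample, the count divided by a size factor from DESeq2. They served here for symbols only. At 2 days 5 of the 7 sample headers of that table carried the values of another raw column, so raw column codes were used throughout. Fold changes and p-values deposited by the authors were not used.

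The receptors and all gene lists were chosen with earlier results of these data known. Columns name a group and a code but not the replicate number of the labels. Where nothing says samples came from separate animals, p-values measure the spread between samples. Genes were filtered by edgeR 4.0.16, scaled by TMM and tested by the quasi-likelihood test in R 4.3.3, over 3 vehicle and 4 Cort samples. Padj below 0.1 was the threshold for a call, and unadjusted P below 0.05 is given as a description. CPM was TMM-scaled over all 10 samples, and the permutation test used log2(CPM + 1). The floor of 3 counts covers counting error only. Alternatives were DESeq2 1.42.0, other scalings and filters, all 10 samples, and leaving out each sample. The 10 receptors are all named, with other genes where P was below 0.05 (at most 5 per list and dataset), Th, Slc6a3, Ddc, Tph2, Dbh and Slc6a4, and the 3 other receptors highest per kb. Scripts were tested on simulated data.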

Additional observations from a re-analysis of the deposited data

Results flagged for a closer look

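For each receptor, the 5 samples of a group were searched for 1 that stood far from the rest, by the gap to its nearest neighbour over the range of the group. Of 40 groups, 4 had such a sample. The nominal rate of the measure, about 1 in 20, was exceeded over all genes tested in both datasets. All 4 were among the 20 groups at 4 weeks, where the same measure marked 16.1% of the groups of all genes tested, and there were 0 of 20 at 2 days, where it marked 9.32%. None was a sample that the study left out. Htr7 was at 50.7 CPM in Cort sample C08, with 1.89 to 6.81 in the others of its group. Adra2a was at 19.4 CPM in Cort sample C10, with 0 to 1.03 in the others. The vehicle sample C03 held both other cases, Adrb1 at 17.7 CPM beside 0 to 4.03, and Adra1b at 5.63 CPM beside 0 to 1.34.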

How the results depend on the processing

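No receptor had Padj below 0.1 under any of the alternatives tried in the 2 datasets, and the lowest value was 0.29 (Htr2c at 2 days, DESeq2). At 2 days 2 receptors had P below 0.05, and 1 over all 10 samples, where none separated the groups. Leaving out 1 sample gave 1 to 4 at 2 days, where 4.37% to 6.57% of all genes tested had P below 0.05, and 0 at 4 weeks, where 4.03% to 5.12% did. The filter of at least 10 counts in every sample gave 3 at 2 days. Over all 10 samples the log2 fold change turned sign for Adra1b (-0.34) and Htr7 (-0.16) at 2 days and for Adra1a (-0.038) at 4 weeks, where Adra2a was not tested. Among all genes, 8 had Padj below 0.1 at 2 days, against 24 without the filter, 2 over all 10 samples, 52 with DESeq2 and 1 to 16 with 1 sample left out. At 4 weeks the count was 5, against 3 with upper quartile scaling, 9 without the filter, 1 over all 10 samples, 68 with DESeq2 and 0 to 10. For the interaction it was 2, against 0 over all 20 samples, 67 with DESeq2 and 0 to 3. The cause of these differences was not tested.

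Leaving out 1 sample turned the sign of some receptors. At 2 days the range was -0.21 to 0.75 for Drd2 and -0.31 to 0.47 for Htr7. At 4 weeks it was -0.016 to 1.01 for Adra1a, -0.63 to 0.68 for Adra2a (6 of the 7 fits, as it was not tested without C10), -1.26 to 0.77 for Adrb1, -0.91 to 0.71 for Drd2, -1.59 to 0.12 for Htr2a, -0.28 to 0.63 for Htr2c and -1.11 to 0.95 for Htr7. For the interaction it was -2.46 to 0.028 for Adra1b, -4.03 to 1.07 for Adra2a, -1.05 to 0.54 for Drd2, -0.94 to 0.13 for Htr1b, -0.29 to 1.54 for Htr2a and -1.32 to 0.87 for Htr7. Without a turn of sign, the range at 2 days was -1.40 to -0.22 for Adra1a, -0.72 to -0.11 for Adra2a, 0.62 to 1.03 for Adra1b, 0.92 to 1.52 for Htr1b, -2.11 to -0.98 for Htr2a and -1.38 to -0.91 for Htr2c, and at 4 weeks -1.27 to -0.080 for Htr1a and 0.26 to 1.32 for Htr1b. No paired analysis was possible because the columns carry codes that match a group but no replicate number.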
